A study of Nematostella vectensis with 47 samples.

Results

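Near-silent genes with more RNA after methylation loss were followed here in gastrulae of the starlet sea anemone *Nematostella vectensis*. They are 106 of the 19231 genes counted by RNA-seq. A gene was taken if its mean in the F0 DMSO libraries was under 1 CPM (the count divided by the library's total and scaled to 1e+06), if every F0 GSK library held at least 0.5 CPM, and if the lowest F0 GSK library was at least 1.5 times the highest F0 DMSO library. Members were thus chosen by their F0 RNA-seq levels, which are given as a description only. In all, 4028 genes had an F0 DMSO mean under 1 CPM, and the members are 2.63% of these. The other 3922, called near-silent non-members here, serve as the comparison throughout. With the roles of F0 DMSO and F0 GSK exchanged, 33 genes met the same rule.

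F0 GSK gastrulae came from fertilized eggs kept for 25 h in 5 µM GSK-3484862 (GSK), a small-molecule inhibitor of the maintenance DNA methyltransferase DNMT1, and F0 DMSO gastrulae from eggs kept in the 0.1% DMSO solvent. Each of the 3 F0 replicates pooled gametes of several animals from its own broodstock, and the zygotes of a cross were divided between GSK and DMSO. F1 GSK gastrulae were untreated offspring of 2 lines, each founded by 1 pair of weakly methylated GSK-treated parents. F1 MO gastrulae were untreated offspring of 2 lines whose parents had been injected as eggs with morpholinos against DNMT1 and its partner UHRF1. All embryos were whole gastrulae taken at 25 hours post-fertilization (hpf). There was no untreated F1 group among the RNA-seq and ATAC-seq libraries analysed here, so both F1 groups were set against F0 DMSO, and an effect of generation, of the founder pair or of the genetic background cannot be told apart from one of inherited methylation. Whole embryos were sequenced, so more RNA per cell and more cells with a given RNA cannot be told apart either. The members are listed by locus number alone. Products and roles were not used here, so neither gene functions nor lists of pathway or cell type genes could be applied.

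DNMT1 copies CpG methylation onto the newly made DNA strand at each cell division, and UHRF1 brings it to half-methylated sites. In *Nematostella*, as in most invertebrates, methylated CpGs (mCG) lie mainly in the bodies of broadly expressed genes, whereas genes that are silent or used in few cells usually have unmethylated bodies. A near-silent gene that gains RNA after DNMT1 inhibition can thus be asked whether its own body carried methylation, whether its chromatin became more accessible, and whether the RNA is still raised in untreated offspring.

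The 10 RNA-seq libraries held 20823699 to 29358798 counts, so that 1 CPM stands for 20.8 to 29.4 counts. Members had 13 to 246 counts in a F0 GSK library (median 40) and at most 34 in a F0 DMSO library (median 11). Replicate 3 of F0 DMSO stood apart from its group, with a Pearson r of 0.955 and 0.966 with the other two, which had an r of 0.991 with each other (log2 CPM across genes). Replicate 2 of F1 MO had more RNA of near-silent genes of any kind. The near-silent non-members summed to 1981 CPM in it and to 1136 to 1447 CPM in the other 9 libraries. The main F1 MO summaries, and the F0 calls, are given with and without these libraries.

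In F0 GSK gastrulae the members were at a low level, and in F0 DMSO at a trace. The median over members of the mean level was 0.491 CPM in F0 DMSO and 1.54 CPM in F0 GSK, with means of 0.604 to 6.56 CPM among members in F0 GSK. For the 105 members with RNA in F0 DMSO, the ratio of the means had a median of 3.45 and ranged from 1.79 to 45.1. After treatment only 1 member had a mean of 5 CPM or more, 34 had 2 CPM or more and 23 stayed under 1 CPM. Summed over members, the F0 DMSO libraries held 53.9, 50.8 and 45.5 CPM and the F0 GSK libraries 186, 172 and 174 CPM. The separation of these groups was set by the choice of members.

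LOC116608458 (chr8:2160473-2170780) was the most abundant member after treatment. It held 0.96, 0.59 and 0.54 CPM in F0 DMSO and 9.07, 5.59 and 5.01 CPM in F0 GSK. In F1 GSK it was back in the F0 DMSO range, at 0.84 and 0.61 CPM. In F1 MO the lines differed, at 0.91 CPM in replicate 1 and 3.94 CPM in replicate 2. LOC5511199 (chr5:6138184-6141297) held 0.61, 1.34 and 0.89 CPM in F0 DMSO and 5.12, 4.56 and 3.92 CPM in F0 GSK. Its F1 levels were 1.15 and 1.32 CPM in F1 GSK and 1.55 and 2.16 CPM in F1 MO, so that only the F1 MO libraries lay above every F0 DMSO library. LOC116618001 (chr7:15171413-15173382) held 0.31, 0.43 and 0.76 CPM in F0 DMSO and 4.57, 2.34 and 3.30 CPM in F0 GSK. It lay below every F0 DMSO library in F1 GSK, at 0.18 and 0.24 CPM.

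Another set of members went from no RNA, or nearly none, to a clear signal. LOC116609269 (chr11:14592553-14594321) was the only member without a single count in F0 DMSO, and it held 0.70, 2.47 and 1.40 CPM in F0 GSK. Against a floor of 3 counts over the group, its F0 GSK mean was at least 35.8-fold higher than F0 DMSO. It had no count in any F1 library, where the same floor puts F0 GSK at least 22.2-fold above F1 GSK and at least 22.3-fold above F1 MO. LOC5503171 (chr14:10672217-10692638) held 0, 0.04 and 0.09 CPM in F0 DMSO and 1.47, 2.43 and 1.91 CPM in F0 GSK. LOC116609535 (chr5:7334864-7338365) held 0, 0.12 and 0 CPM in F0 DMSO and 1.81, 1.44 and 1.33 CPM in F0 GSK. Neither of these was raised in offspring. LOC5503171 held at most 0.14 CPM in an F1 library, and LOC116609535 had no count in F1 GSK and at most 0.10 CPM in F1 MO.

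**Figure D1:**
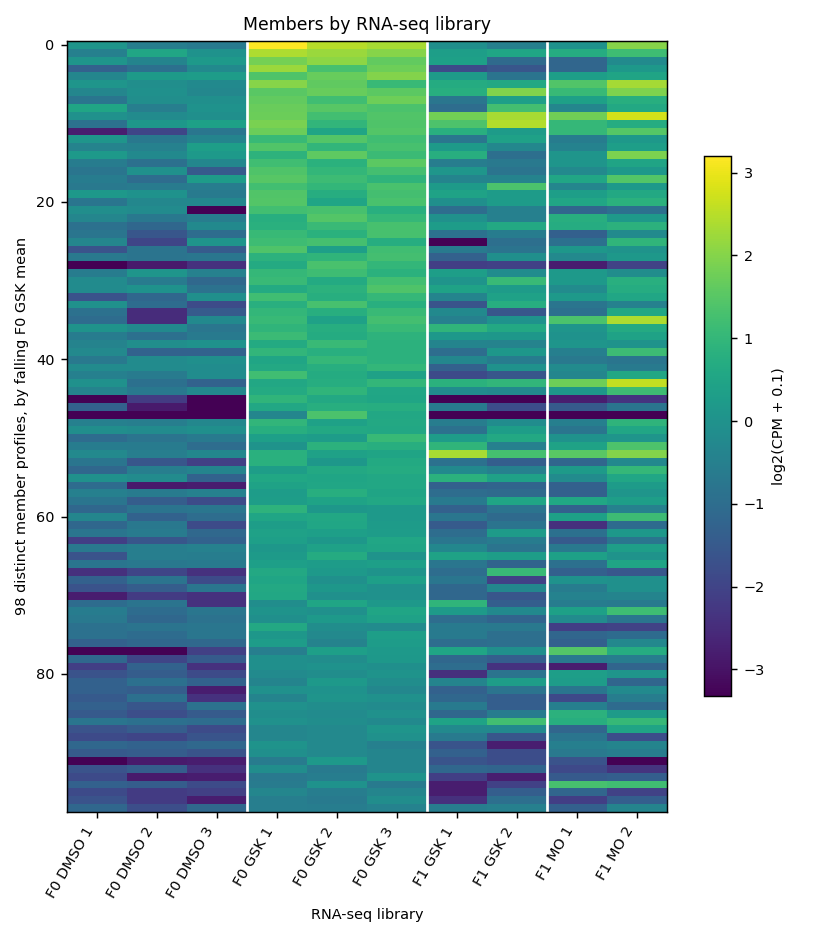
Heat map of log2(CPM + 0.1) for the 98 distinct count profiles among the 106 members (rows, by falling F0 GSK mean) in the 10 RNA-seq libraries (columns; white lines part the groups). The F0 GSK columns are bright in every row because the rule asked for it, whereas the F1 columns range from the F0 DMSO level to above the F0 GSK level.

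Just inside the rule's limit on F0 DMSO lay LOC5502976, with a mean of 0.960 CPM, and just outside it LOC116617545, with 1.01 CPM. At the limit on the lowest F0 GSK library, LOC125556796 had 0.516 CPM and LOC116607203, outside, 0.493 CPM. At the limit on the ratio, LOC5521160 had a lowest F0 GSK library 1.503 times the highest F0 DMSO library and LOC5502763, outside, 1.497 times. Members and non-members are thus continuous at each limit. The number of members would be 172 without F0 GSK replicate 2 and 140 to 158 without any other single F0 library.

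Over all genes, edgeR's quasi-likelihood test with Benjamini-Hochberg adjustment called 0.240% of 16654 genes higher in F0 GSK than in F0 DMSO at an adjusted p under 0.01. Of the 106 members, 7 were among them (LOC116608458, LOC5515448, LOC116620880, LOC5503171, LOC116609535, LOC116612317 and LOC116614944, the last a pair named after their values were seen). At an unadjusted p under 0.05 all 106 were higher (8.74% of all genes), and DESeq2 called 38 (1.68% of its genes). Since this contrast chose the members, nothing is read from these counts. The fitted log2 change was largest for LOC116609269, whose value depends on the prior count, then 5.32 ± 0.62 (SE) for LOC5503171 and 4.99 ± 0.72 for LOC116609535. Without F0 DMSO replicate 2, the only F0 DMSO library with counts of LOC116609535, its fitted change was 8.26, a value that depends on the prior count. The calls rested on single libraries. There were 18 without F0 DMSO replicate 3 (0.712% of all genes higher) and 4 without F0 DMSO replicate 1 (0.0474%). None were left without F0 DMSO replicate 2 or without any 1 of the F0 GSK libraries (0% of all genes higher). With the replicate number as a block there were 0, and 0 genes of any kind were called higher.

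Most members were lower in the F1 gastrulae than in F0 GSK, where the rule had asked for high levels. A larger share of members than of near-silent genes at large lay above the F0 DMSO range. The median over members of the mean level was 0.593 CPM in F1 GSK and 0.868 CPM in F1 MO. Both F1 GSK libraries lay above every F0 DMSO library for 38 of 106 members (35.8%), compared with 18.0% of all genes and 13.8% of near-silent non-members. Both F1 MO libraries did so for 49 members (46.2%), compared with 24.8% of all genes and 17.8% of near-silent non-members. All 4 F1 libraries did so for 27 members (25.5%), compared with 9.41% of all genes and 6.14% of near-silent non-members. Below every F0 DMSO library lay 5 members in F1 GSK (4.72%, compared with 9.99% of near-silent non-members and 12.3% of all genes) and 4 in F1 MO (3.77%, compared with 8.36% and 21.5%). A gene without a count in an F0 DMSO library cannot lie below it, as for 15 members. Nor can a gene without a count in an F1 group lie above F0 DMSO there. This held for 652 near-silent non-members and 2 members in F1 GSK, and for 525 and 1 in F1 MO. The members and the near-silent non-members were thus not matched for how readily they were detected.

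These shares come with a limit set by the rule, which kept the members low in the same F0 DMSO libraries that the F1 libraries are set against. How much of the excess comes with that choice was not tested. The rule also kept members high in every F0 GSK library. How much of the fall from F0 GSK to F1 comes with that was not tested either. The exchanged rule was read in the other direction. Of the 33 genes that met it, 20 lay below every F0 DMSO library in both F1 GSK libraries (12.3% of all genes). In both F1 MO libraries 28 did so (21.5% of all genes). Both shares of the 33 are larger than the shares of members above F0 DMSO. The exchanged rule kept its genes high in those same F0 DMSO libraries. How much of these shares comes with that choice was not tested, so nothing is read from their order.

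The F1 MO count also rested on the library. Replicate 2 of F1 MO lay above every F0 DMSO library for 79 members (74.5%, compared with 43.5% of near-silent non-members), and replicate 1 for 56 (52.8%, compared with 24.3%). The F1 GSK libraries did so for 55 members each (51.9%, compared with 27.7% and 27.3%). Without F1 MO replicate 2, the remaining 3 F1 libraries all lay above for 30 members (28.3%, compared with 7.04%).

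The F1 means were also expressed as a percentage of the rise from the F0 DMSO mean to the F0 GSK mean. The rule set both ends of that rise, so the percentages describe levels and do not measure what was passed on. The median over members was 10.7% (interquartile range -1.86% to 36.4%) for F1 GSK and 34.5% (7.89% to 69.0%) for F1 MO. The mean of a member reached the full F0 GSK mean for 11 members in F1 GSK and 17 in F1 MO. It was at or below the F0 DMSO mean for 31 members in F1 GSK and 17 in F1 MO. The F1 MO values rested on replicate 2. Without it the median was 16.6% (-5.13% to 54.3%), 13 members reached the F0 GSK mean, 34 were at or below the F0 DMSO mean, and the median level over members was 0.604 CPM. In all, 46 members were above the F0 DMSO range in neither F1 group, 11 were above it in F1 GSK alone and 22 in F1 MO alone. These counts do not test a difference between the F1 groups, for which the direct fit is given further on.

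**Figure D2:**
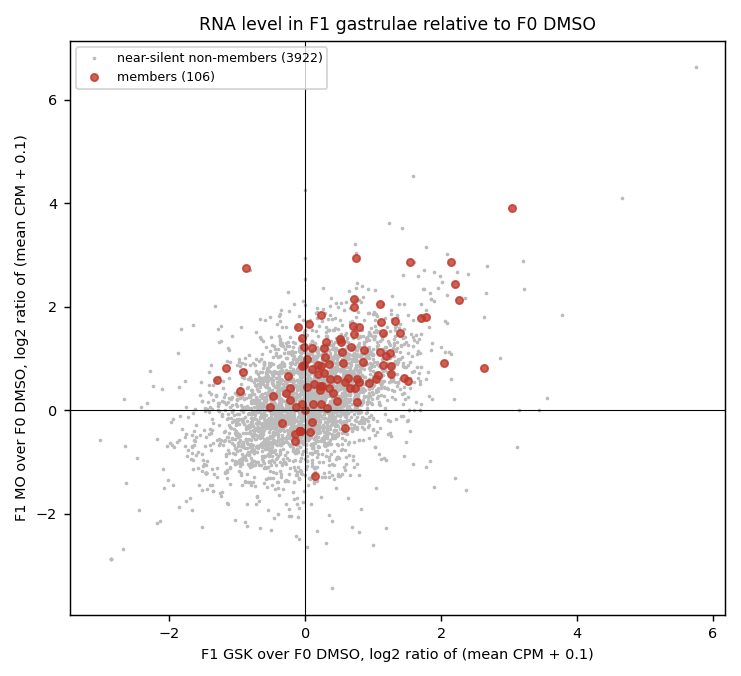
Each point is a gene, placed by the log2 ratio of its mean CPM + 0.1 in F1 GSK (x axis) and F1 MO (y axis) to its mean in F0 DMSO. The 106 members (red) lie mostly right of and above zero, with 75 above the F0 DMSO mean in F1 GSK and 89 in F1 MO (72 without F1 MO replicate 2), whereas the 3922 near-silent non-members (grey) are spread about zero.

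Some members were as high in untreated offspring as in treated embryos, or higher. LOC5514988 (chr6:7664106-7667365) overlaps LOC5514992, a gene with means of 55.3 CPM in F0 DMSO and 50.5 CPM in F0 GSK. Counts of the member and of this neighbour cannot be told apart here. The member held 0.74, 0.59 and 0.71 CPM in F0 DMSO and 1.66, 1.23 and 1.29 CPM in F0 GSK. In offspring it held 5.01 and 2.31 CPM in F1 GSK and 2.76 and 3.89 CPM in F1 MO, so every F1 library lay above every F0 GSK library. LOC125563036 (chr1:19616082-19619633), picked out after its values were seen, had the same order. Its levels were 0.48, 0.43 and 0.40 CPM in F0 DMSO, 0.88, 0.82 and 0.75 CPM in F0 GSK, 1.29 and 2.22 CPM in F1 GSK, and 1.60 and 1.97 CPM in F1 MO.

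LOC116611620 (chr6:10907299-10908354), which lies within the gene LOC5503807, also exceeded its F0 GSK level in all 4 F1 libraries. It held 0.88, 0.79 and 0.85 CPM in F0 DMSO and 3.24, 2.22 and 2.59 CPM in F0 GSK. It then held 3.41 and 5.00 CPM in F1 GSK and 3.32 and 6.72 CPM in F1 MO. Its host gene had means of 43.2 CPM in F0 DMSO, 53.2 CPM in F0 GSK (edgeR adjusted p = 0.351), 43.9 CPM in F1 GSK and 46.3 CPM in F1 MO. LOC116621201 (chr1:4529034-4530247) overlaps LOC5517137, a gene with means of 40.9 CPM in F0 DMSO and 43.6 CPM in F0 GSK. Here too the counts of member and neighbour cannot be told apart. The member held 0, 0 and 0.13 CPM in F0 DMSO and 0.59, 1.19 and 1.06 CPM in F0 GSK. It held 1.33 and 0.85 CPM in F1 GSK and 2.63 and 1.54 CPM in F1 MO, again above every F0 DMSO library. LOC5515448 (chr9:8508536-8511536) held 0.70, 0.87 and 0.71 CPM in F0 DMSO and 2.77, 3.08 and 2.86 CPM in F0 GSK. In F1 GSK it held 1.60 and 3.82 CPM and in F1 MO 1.99 and 3.75 CPM, so that replicate 1 of each F1 group fell between the F0 groups and replicate 2 above both.

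Other members were raised in the offspring of morpholino-injected parents more than in those of GSK-treated parents. LOC116604390 (chr6:5459526-5466102) held 0.31, 0.28 and 0.18 CPM in F0 DMSO and 0.55, 0.90 and 0.54 CPM in F0 GSK. It was lower than every F0 DMSO library in F1 GSK, at 0.04 and 0.14 CPM, and higher than every F0 library in F1 MO, at 2.37 and 2.21 CPM. LOC5502227 (chr5:15326083-15331123) held 0.39, 0.08 and 0.76 CPM in F0 DMSO, 1.99, 1.23 and 2.28 CPM in F0 GSK, 0.62 and 0.90 CPM in F1 GSK, and 2.46 and 5.19 CPM in F1 MO. LOC116615274 (chr13:13061382-13064344) held 0.88, 0.43 and 0.31 CPM in F0 DMSO, 1.40, 1.56 and 1.91 CPM in F0 GSK, 1.68 and 1.84 CPM in F1 GSK, and 3.28 and 5.91 CPM in F1 MO. For all 3 genes the F1 MO libraries lay above the F1 GSK libraries, but the genes were named for extreme F1 levels. The share of all genes that part in this way, with 2 libraries a group, was not counted. Replicate 2 of F1 MO also had more RNA of near-silent genes of any kind. LOC116615450 (chr15:1623724-1625841) had the opposite order, with 2.48 and 5.38 CPM in F1 GSK and 1.94 and 1.54 CPM in F1 MO, against 0.44, 0.99 and 1.20 CPM in F0 DMSO and 3.61, 1.85 and 2.55 CPM in F0 GSK.

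**Figure D3:**
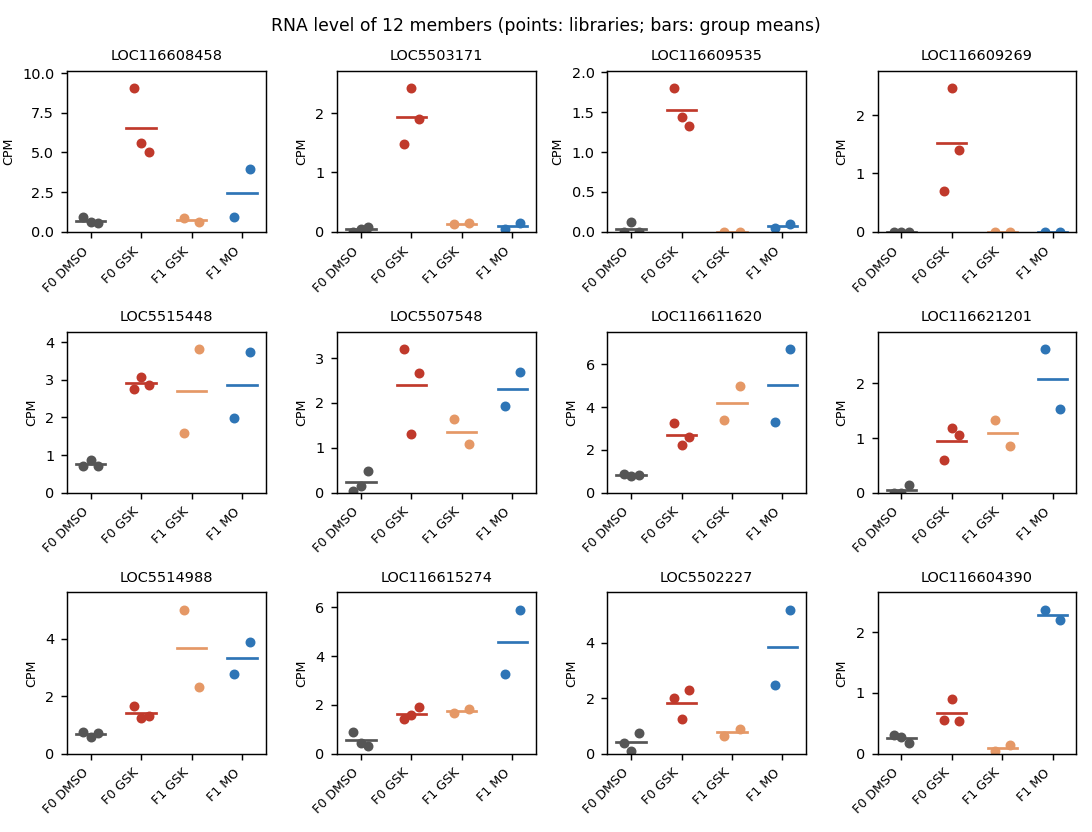
CPM of 12 members in the 10 RNA-seq libraries (points) with the group mean (bars), each panel on its own linear axis from 0. The top row shows members that were near the F0 DMSO level in F1 GSK, such as LOC116609269 with no count in any F1 library, and the lower rows members that stayed raised in F1, such as LOC5514988, or were highest in F1 MO, such as LOC116604390.

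The fitted tests of the F1 groups rest on 2 lines each. In F1 GSK against F0 DMSO, edgeR called none of 16681 genes at an adjusted p under 0.01 (0% higher). Of the members, 81 passed the filter on low counts and 0 were called, whereas 17 were higher and 1 lower at an unadjusted p under 0.05 (4.99% and 5.86% of all genes) and DESeq2 called 2 (0.469% of its genes higher). In F1 MO against F0 DMSO, edgeR called 0.0955% of genes higher and 0.472% lower. Among 86 members tested, 0 were called, 28 were higher and 1 lower at an unadjusted p under 0.05 (12.4% and 15.4% of all genes), and DESeq2 called 11 (3.48% of its genes higher). Without F1 MO replicate 2, 17 members were higher and 0 lower at an unadjusted p under 0.05 (7.21% and 8.21% of all genes). Without F0 DMSO replicate 3, edgeR called 6 members higher in that contrast, beside 1.60% of all genes. The member nearest to the threshold was LOC116604390, with a log2 change of 3.10 ± 0.42 (SE) and an adjusted p of 0.0140 in edgeR.

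F1 MO against F1 GSK is the RNA-seq contrast that shares no library with the rule. Here edgeR called 0% of 16556 genes in either direction. Of 78 members tested, 0 were called, and 10 were higher and 1 lower in F1 MO at an unadjusted p under 0.05 (9.98% and 9.59% of all genes). DESeq2 called 0 members, but it gave an adjusted p to only 14475 of 18864 genes, and none to LOC116604390. LOC116604390 again came nearest, with a log2 change of 4.6 ± 0.64 (SE) and an adjusted p of 0.0830 in edgeR, higher in both F1 MO libraries than in both F1 GSK libraries. With all groups in 1 fit, which shares the estimate of the spread, its log2 change was 4.58 (edgeR adjusted p = 0.00596). It was the only member called in that fit, which called 0.128% of all genes higher. The split of the members by unadjusted p rested on F1 MO replicate 2. Without it 3 members were higher and 0 lower (4.29% and 5.25% of all genes).

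Members lay on all 15 chromosomes, with 3 to 11 on each. They overlapped another protein-coding gene about as often as other genes (29 of 106 members, or 27.4%, compared with 25.7% of near-silent non-members and 29.4% of all genes). Of these, 7 lay inside another gene and 12 overlapped a gene with at least 10 times their own F0 GSK mean CPM. For such members, counts assigned to the more abundant neighbour and to the member cannot be told apart here. Their median length was 4713 bp, between the 3108 bp of near-silent non-members and the 6180 bp of all genes.

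The largest group of neighbouring members with a shared profile was an array on chromosome 12, where 9 loci of 378 bp (LOC125557489 at chr12:2346072-2346449 to LOC125557516 at chr12:2407695-2408072) held identical counts in every library. Each had 19, 20 and 0 counts in F0 DMSO and 61, 57 and 48 in F0 GSK, or 2.25, 2.34 and 1.63 CPM in the latter. The F1 libraries held 9 and 13 counts in F1 GSK and 8 and 9 in F1 MO, no higher than the 2 F0 DMSO libraries with counts. They sit in a stretch of 57 genes (chr12:2326546-2411015) in which count profiles repeat from locus to locus. Which copies the reads came from cannot be told apart, and the 9 loci count as 1 profile among 98. Within the array LOC125557143, not a member, held 3.15, 1.26 and 0.31 CPM in F0 DMSO and 7.37, 5.80 and 5.76 CPM in F0 GSK. It held 0.62 and 0.76 CPM in F1 GSK and held 3.19 and 1.63 CPM in F1 MO.

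On chromosome 15, 3 members follow each other with no gene between, LOC116618840 (chr15:266723-268354), LOC125560596 (chr15:269663-272739) and LOC125560597 (chr15:273006-275403). LOC125560597 held 0.96, 0.67 and 1.03 CPM in F0 DMSO and 3.47, 4.15 and 3.0 CPM in F0 GSK, LOC125560596 0.48, 0.24 and 0.13 CPM and then 1.66, 0.99 and 1.46 CPM. The smallest, LOC116618840, held 0.18, 0.16 and 0.22 CPM in F0 DMSO and 0.70, 0.74 and 0.89 CPM in F0 GSK. In the offspring, LOC116618840 lay above every F0 DMSO library in both F1 GSK libraries, and neither of its neighbours did so in both libraries of an F1 group.

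On chromosome 5, 7 members lie among 48 genes (chr5:14404364-15451557), a stretch chosen because it holds many members. Among its 41 other genes, 10 had every F0 GSK library above every F0 DMSO library, against 12.4% of all genes in the table. The same F0 libraries chose the stretch, and some of these genes overlap members, so nothing is read from this count. Among the 10 is LOC5502251 (chr5:14795746-14904642), which contains the member LOC125563031. It held 2.01, 2.09 and 2.68 CPM in F0 DMSO and 10.3, 10.6 and 11.2 CPM in F0 GSK (edgeR log2 change 2.21 ± 0.22 SE, adjusted p = 0.00325). Its level was 1.64 and 3.40 CPM in F1 GSK and 4.49 and 6.05 CPM in F1 MO, so both F1 MO libraries and 1 of the F1 GSK libraries lay above every F0 DMSO library. The member inside it held 0.18, 0.12 and 0.13 CPM in F0 DMSO and 0.70, 0.58 and 0.68 CPM in F0 GSK.

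Methylation, which the rule did not use, was read from Nanopore calls of 1 library each, so no test could be made and intervals cover counting error only. The baseline library came from gastrulae of an untreated cross, with 33.5 calls per CpG and 12.3% mCG over the nuclear genome. Most members had unmethylated bodies. At least 10% mCG was found in the gene body of 7 of 103 members with a value (6.80%, 95% Wilson interval 3.33% to 13.4%), compared with 9.60% (8.68% to 10.6%) of near-silent non-members, 58.0% of genes with 1 CPM or more and 48.3% of all genes. The median body level was 0.126% in members and 0.115% in near-silent non-members, and 82 members were under 1%. The region within 500 bp of the gene ends gave 9 of 104 members (8.65%), compared with 9.22% of near-silent non-members.

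The 96 unmethylated members stayed unmethylated in the other Nanopore libraries. Their highest body level was 2.59% in sperm of a GSK-treated male (4.37% mCG over the genome), 3.98% in F1 gastrulae of GSK-treated sperm and untreated eggs, and 6.92% in a single F1 juvenile 4 months old whose father alone had been GSK-treated. These crosses had only 1 treated parent, unlike the F1 GSK lines of the RNA-seq. Among the unmethylated members are LOC116608458 with 0.08%, LOC116609269 with 0.07% and LOC5503171 with 1.60% at baseline. LOC5514988 was at 0.11% in its body and at 7.08% around its ends. Of these 96 members, 31 lay above every F0 DMSO library in F1 GSK, 43 in F1 MO and 21 in all 4 F1 libraries (18.0%, 24.8% and 9.41% of all genes).

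The 7 methylated members covered the whole range. LOC116611620, the locus inside LOC5503807, had 96.4% mCG at baseline (95.5% to 97.2%), 28.0% in GSK sperm, 51.2% in F1 gastrulae and 81.2% in the F1 juvenile. LOC116621201 had 73.9% (70.8% to 76.9%) at baseline, 22.7% in sperm, 40.8% in F1 gastrulae and 20.2% in the juvenile. LOC116615450 had 66.0% (64.2% to 67.8%), 7.21%, 26.9% and 38.4% in the same order. All 3 of these had an RNA level above every F0 DMSO library in all 4 F1 libraries.

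The others had less methylation at baseline. LOC125560596 of the chromosome 15 trio had 34.3% (32.5% to 36.2%), 1.44% in sperm, 12.9% in F1 gastrulae and 73.6% in the juvenile. LOC125567924 (chr6:11209042-11210708) went from 12.8% to 2.11%, 17.4% and 54.6%, and LOC116618840 from 11.2% to 0.254%, 4.69% and 35.7%. For these 3 the juvenile was above the untreated gastrulae. Stage, animal and cross differ between the libraries and cannot be told apart. LOC116620880 (chr12:3062401-3083450) went the other way, with 11.8% at baseline and 3.51%, 6.24% and 0.855% thereafter.

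All 7 were lower in GSK sperm than in untreated gastrulae, the library in which they had been taken as methylated. Over the genome mCG was lower there too, at 4.37% in GSK sperm and 12.3% in untreated gastrulae, so the fall is not particular to the members. Of the 7, 5 lay above every F0 DMSO library in F1 GSK, 4 in F1 MO and 4 in all 4 F1 libraries. Of the 96 unmethylated members 31, 43 and 21 did so, and of all genes 18.0%, 24.8% and 9.41%. With 7 genes, no difference between methylated and unmethylated members can be read from these counts.

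**Figure D4:**
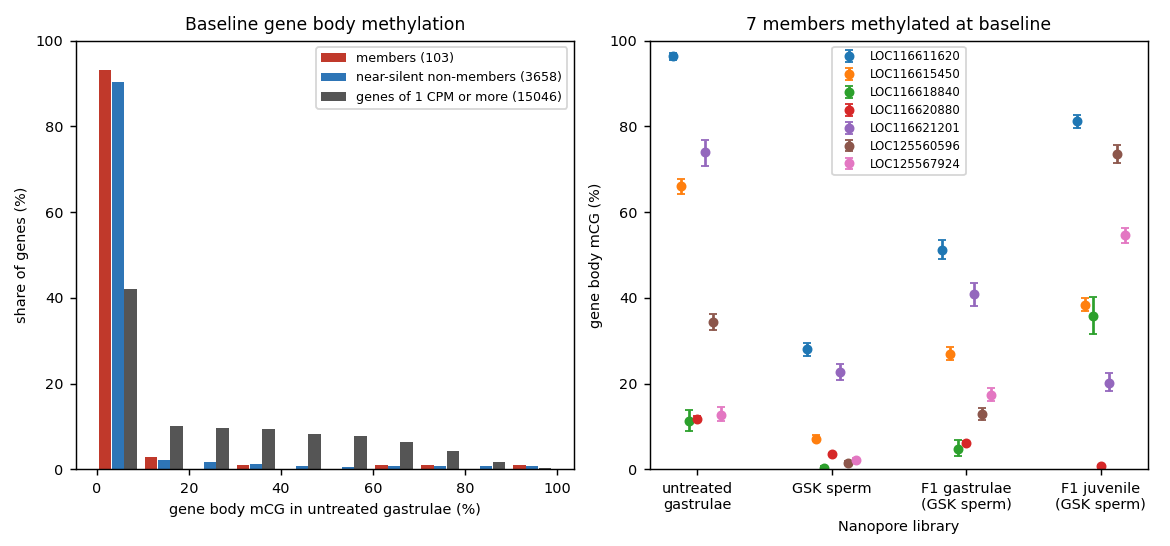
Left, share of genes (%) in each 10-point bin of gene body mCG (%) in untreated gastrulae for members, near-silent non-members and genes of 1 CPM or more; the first bin holds all but 7 of the 103 members. Right, gene body mCG (%) of those 7 members in the 4 Nanopore libraries, with 95% Wilson intervals. All 7 are lower in GSK sperm than in untreated gastrulae, as is mCG over the genome.

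Accessibility, the other readout the rule did not use, was measured by ATAC-seq, which counts transposase insertions in open chromatin (2 libraries each of F0 DMSO, F1 MO and F1 GSK, and 3 of F0 GSK). Nuclei and RNA were taken from the same replicate cultures, so it is another readout and not a separate experiment. The libraries held 11366484 to 33980509 counts in peaks. A peak was counted for a gene if it overlapped the gene or 500 bp on either side. By that measure 72 of 106 members had a peak (67.9%, compared with 52.4% of near-silent non-members and 84.4% of all genes), with 227 peaks in all.

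Chromatin at the members was mostly more open in F0 GSK. The fitted log2 change of accessibility was above 0 for 169 of the 227 peaks (74.4%), compared with 52.1% of peaks at near-silent non-members and 49.6% of all 36284 peaks. Its median was 0.21 (interquartile range -0.00 to 0.47), against 0.01 at near-silent non-members and -0.00 over all peaks. Peaks of a gene are not independent, so the same was counted by gene. The median change over a gene's peaks was above 0 for 57 of the 72 members (79.2%), compared with 52.1% of near-silent non-members and 44.4% of all genes. Without the 3 members with most peaks (LOC116612520, LOC5506344 and LOC5503994), 115 of 167 peaks were above 0, with a median of 0.13.

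By the test of single peaks, edgeR called 5 member peaks higher and 0 lower at an adjusted p under 0.01, against 1.44% and 0.229% of all peaks. At an unadjusted p under 0.05, 42 were higher and 1 lower (7.59% and 4.00% of all peaks), and DESeq2 called 9 higher and 0 lower (1.84% and 0.273%). Thus 5 of 72 members had a peak called higher, compared with 2.80% of genes with a peak and 0.584% of near-silent non-members with a peak. Members also had more peaks per gene. There were 227 at 72 members, 3627 at 2055 near-silent non-members and 30275 at 16225 genes of any kind. Counted by peak, 5 of 227 were called higher, compared with 12 of 3627 and 473 of 30275. Among the 5 were those at LOC116612520 and LOC5506344, which held 26 and 20 peaks. All 3 F0 GSK libraries lay above both F0 DMSO libraries for 82 member peaks, at 37 members (15.8% of all peaks). The call for single peaks depended on the libraries, with 0 members without F0 DMSO replicate 1, 1 without F0 DMSO replicate 2, 3 without F0 GSK replicate 3 and 9 without F0 GSK replicate 1. Of all peaks, 0.943% were called higher without F0 GSK replicate 3 and 2.03% without F0 GSK replicate 1. With a replicate block 4 member peaks were called (1.35% of all peaks higher). The call was lost (0 members, and 0 peaks of any kind) with the F1 libraries in the same fit.

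The peak with the largest change was at LOC125560596 (chr15:269917-270688), inside the gene. It held 4.03 and 6.92 CPM (scaled to the counts in peaks) in F0 DMSO and 18.5, 21.1 and 16.1 CPM in F0 GSK, a log2 change of 1.73 ± 0.27 (SE; edgeR adjusted p = 1.40e-05). In the offspring the lines disagreed, with 6.33 and 0.42 CPM in F1 GSK and 18.4 and 0.40 CPM in F1 MO. The DNA of this peak had 44.3% mCG in untreated gastrulae, 0.126% in GSK sperm, 13.3% in F1 gastrulae and 78.7% in the F1 juvenile.

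The other 4 peaks lay in unmethylated DNA, at most 0.219% mCG in any of the 4 Nanopore libraries. The peak at LOC116612520 (chr5:14559776-14560413) held 5.42 and 7.39 CPM in F0 DMSO and 15.2, 13.8 and 15.0 CPM in F0 GSK (log2 change 1.17 ± 0.27 SE, edgeR adjusted p = 0.00584). It was raised in all F1 libraries too, at 9.06 and 22.7 CPM in F1 GSK and 45.1 and 16.0 CPM in F1 MO. The peak at LOC5513569 (chr10:9435859-9437240) held 40.1 and 42.1 CPM in F0 DMSO and 68.9, 74.4 and 87.3 CPM in F0 GSK (0.88 ± 0.15 SE, edgeR adjusted p = 5.43e-05). That peak also lies within 500 bp of the overlapping gene LOC5513605 (chr10:9423213-9435756). The RNA-seq means of LOC5513605 were 38.0 CPM in F0 DMSO and 41.4 CPM in F0 GSK.

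For LOC5513569 the F1 GSK libraries fell on either side of F0 DMSO, at 54.9 and 25.2 CPM, and both F1 MO libraries lay above it, at 65.4 and 83.7 CPM. The peak at LOC5515781 (chr2:16562334-16564271) held 30.9 and 31.1 CPM in F0 DMSO and 61.3, 43.6 and 57.3 CPM in F0 GSK (0.78 ± 0.15 SE, edgeR adjusted p = 0.000771). The peak at LOC5506344 (chr6:17298535-17300187) held 35.9 and 35.3 CPM in F0 DMSO and 57.4, 65.2 and 61.4 CPM in F0 GSK (0.76 ± 0.14 SE, edgeR adjusted p = 0.000441).

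The RNA of these genes did not follow a single pattern in the offspring. LOC5506344 (chr6:17296168-17374177) was among the members highest in F1 MO, with 0.96, 0.83 and 0.76 CPM in F0 DMSO, 3.94, 2.96 and 2.01 CPM in F0 GSK, 1.51 and 1.42 CPM in F1 GSK and 2.59 and 4.85 CPM in F1 MO. LOC116612520 held 0.31, 0.24 and 0.45 CPM in F0 DMSO and 0.88, 0.82 and 0.78 CPM in F0 GSK. In offspring it held 0.53 and 0.28 CPM in F1 GSK and 0.60 and 0.38 CPM in F1 MO, overlapping F0 DMSO although its peak stayed above.

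**Figure D5:**
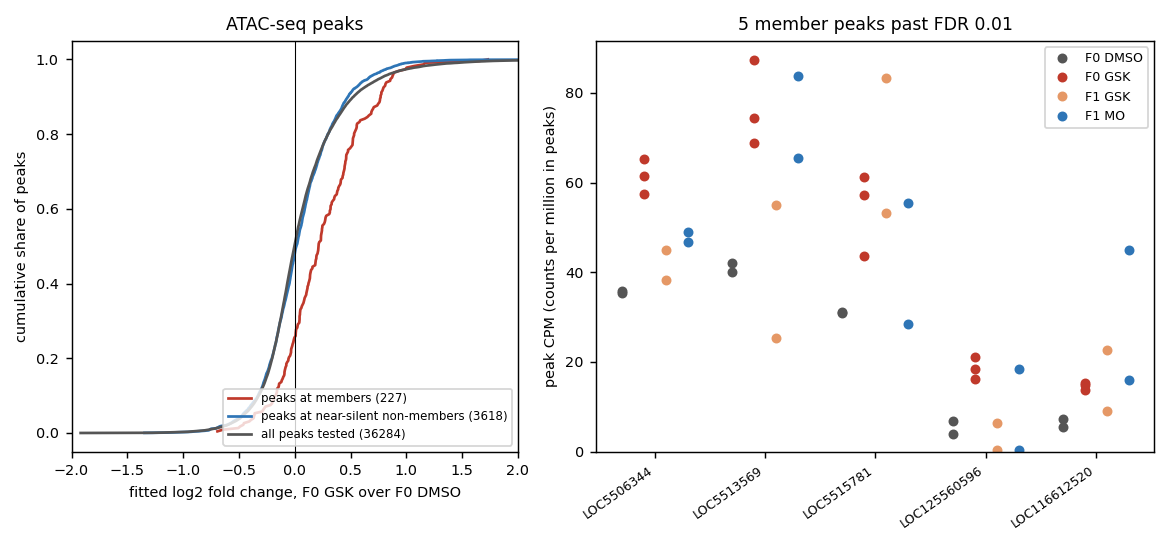
Left, cumulative share of ATAC-seq peaks by fitted log2 fold change of F0 GSK over F0 DMSO; the curve of the 227 member peaks lies to the right of those of near-silent non-members and of all peaks tested. Right, CPM (scaled to the counts in peaks) of the 5 member peaks past an adjusted p of 0.01 in each library (points); all F0 GSK points lie above the F0 DMSO points, and F1 points scatter widely, as at LOC125560596.

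In the F1 contrasts, edgeR called 0% of peaks. At an unadjusted p under 0.05, 11 member peaks were higher and 7 lower in F1 GSK than in F0 DMSO (4.92% and 4.40% of all peaks), and DESeq2 called 1 member peak higher and 0 lower (0.187% and 0.0606%). In F1 MO, 12 were higher and 37 lower (5.60% and 13.0% of all peaks), and DESeq2 called 14 member peaks higher and 33 lower, at 27 members (6.18% and 12.1% of all peaks). The median change at member peaks was 0.13 in F1 GSK and 0.15 in F1 MO, against 0.03 and 0.11 over all peaks. Its direction turned with a replicate block, to -0.02 and -0.48, against -0.06 and -0.25 over all peaks. F1 lines share no cross with F0, so that block pairs unrelated libraries here. No single member peak was thus called in either F1 group by edgeR.

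Transcription starts of the members were rarely listed by CAGE-seq, which captures the capped 5′ ends of RNA. Its 2 GSK libraries were made from the same RNA as 2 of the GSK RNA-seq libraries, so they do not stand apart from the rule, and its 2 controls were labelled as untreated rather than DMSO-treated. A cluster of start sites lay in, or within 500 bp of, 10 of 106 members (9.43%), compared with 5.30% of near-silent non-members and 55.0% of all genes. Among the 12 of 14 clusters listed in all 4 libraries, 4 had both GSK libraries above both controls (30.4% of all such clusters) and 3 had both below (48.7%). The values below are the authors' normalized signal.

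Near LOC116615390 (chr13:2280070-2280466) a minus-strand cluster held 1381 and 2195 in the controls and 4830 and 4533 in GSK. A stronger plus-strand cluster (chr13:2280913-2280996) did not part the groups, with 14020 and 21465 in the controls and 19131 and 20779 in GSK. Both clusters lie outside this short gene. Its RNA-seq level was only 0.48, 0.71 and 0.71 CPM in F0 DMSO and 2.65, 1.32 and 2.42 CPM in F0 GSK. Near LOC5513157 (chr2:21697670-21753817) a cluster held 83.2 and 116 in the controls and 181 and 268 in GSK. At LOC116618001 the order was the opposite of the member's RNA, with 86.5 and 76.5 in the controls and 55.6 and 48.3 in GSK. That cluster lies within the overlapping LOC5511894, which held a mean of 16.8 CPM in F0 DMSO and 16.6 CPM in F0 GSK.

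Clusters listed in a GSK library and in no control were found at 2 members, and such clusters were 508 of 12656 in the whole set. LOC5512040 (chr6:11459342-11539668) had a single-base cluster at position 11496072 of chromosome 6, with 20.2 and 41.1 in the GSK libraries. Its other cluster held 276 and 201 in the controls and 395 and 545 in GSK. Both clusters fall within the overlapping gene LOC5498142, whose RNA-seq mean was 120 CPM in F0 DMSO and 288 CPM in F0 GSK. The member itself held 0.13, 0.32 and 0.09 CPM in F0 DMSO and 0.85, 0.90 and 0.85 CPM in F0 GSK. LOC5514077 (chr2:11980905-12050002) had a single-base cluster with 23.5 in 1 GSK library only.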

How the data were processed

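The authors deposited estimated counts per gene for 10 polyadenylated RNA-seq libraries, written as whole numbers. Their methods describe kallisto and, in parallel, HISAT2 with TElocal, and which gave this table is not given in the sources used here. For ATAC-seq the authors deposited counts per peak (Chromap, MACS3 peaks of each library merged with bedtools, featureCounts), and for Nanopore (Dorado, Modkit) counts of modified and valid calls per CpG. For CAGE-seq (Trim Galore 0.6.7, cutadapt 4.6, STAR, CAGEr) they deposited the power-law normalized signal of each tag cluster. EM-seq was not used here. All coordinates are in jaNemVect1.1, and the 19231 genes were matched to RefSeq by symbol.

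Contrasts were fitted separately across all genes or peaks passing filterByExpr with edgeR 4.0.16 in R 4.3.3 (TMM factors, glmQLFit and glmQLFTest, Benjamini-Hochberg adjusted p under 0.01) and, as an alternative, DESeq2 1.42.0. The scripts were tested on simulated data. CPM used the column totals. Gene body mCG used CpGs with at least 10 calls and genes with at least 5 such CpGs, and 10% or more was called methylated. Other tools were Python 3.11.15, pandas 2.3.3, numpy 2.4.6, scipy 1.17.1 and matplotlib 3.10.9. The annotation used gives no strand, so windows of 500 bp were taken on both sides of a gene in place of windows at its start, and it gives no product names, so marker and pathway lists were not applied.

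Members, lists and tests were chosen with earlier results of these data known. Genes named in the text are, among members, those highest in F0 GSK, highest and lowest in F1 GSK or F1 MO, most changed, methylated, with a called ATAC-seq peak or a GSK-only CAGE cluster, adjacent to another member or at a limit of the rule. Any other gene was named after its values were seen. These include LOC125563036, LOC5507548 (plotted only), LOC116612317, LOC116614944, LOC5502251, LOC116615390 and LOC5513157. Each F0 cross was divided between GSK and DMSO, so same-numbered F0 libraries may share a cross, which the labels do not state. They deviated from their group means in opposite directions (correlations of -0.54, -0.12 and -0.41 in RNA-seq), so the block was kept as an alternative, and its counts are given where they change a call. F1 lines share no cross with F0, so in the F1 contrasts the block pairs unrelated libraries. Labels do not tie every F1 replicate to a separate culture, so p-values measure the spread between these libraries. Alternatives were another scaling, filter, tool or threshold, all groups in 1 fit, a replicate block and leaving out each library.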

Additional observations from a re-analysis of the deposited data

How the results depend on the processing

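The rule gave 68 members with at least 1 CPM asked of every F0 GSK library, 50 with a ratio of 2, and 140 to 172 without 1 F0 library. With a ratio of 2, 19 members lay above F0 DMSO in both F1 GSK libraries and 26 in both F1 MO libraries. Leaving out a library gave 42 to 55 and 53 to 79, the last without F1 MO replicate 1. Members called in F0 GSK by RNA-seq numbered 38 with DESeq2 (1.68% of its genes higher) and 0 to 18 without 1 library (0% to 0.712% of all genes). At an adjusted p under 0.05 they numbered 46. For this and every other count given here at an adjusted p under 0.05, the share over all genes or peaks was not counted. In F1 GSK DESeq2 called 2 (0.469% of its genes higher). In F1 MO the count was 11 with DESeq2, 8 with all groups in 1 fit (0.863% of all genes higher), 12 at an adjusted p under 0.05 and 0 to 6 without 1 library. In F1 MO against F1 GSK it was 1 with all groups in 1 fit (0.128% of all genes higher). Members with an ATAC-seq peak called in F0 GSK numbered 8 with DESeq2, 0 with all groups in 1 fit, 9 at an adjusted p under 0.05 and 0 to 9 without 1 library. In F1 GSK they numbered 1 with DESeq2 and 0 to 46 without 1 library, and in F1 MO 27 and 0 to 60. The highest of these came from fits with a lone F1 library, assumed to vary like the other group, and in these 9.95% to 26.7% of all peaks were called higher. A GSK-only CAGE cluster in both GSK libraries was found at 1 member. The cause of these changes was not tested. With a replicate block, RNA-seq called 0 members in F0 GSK (0% of all genes higher) and 8 in F1 MO (4.87% of all genes higher), and ATAC-seq 4 in F0 GSK (1.35% of all peaks higher). For F1 MO that block pairs unrelated libraries. Of 157 values of 15 fitted changes under alternatives, 85 kept their side of the threshold, 67 lost it, 5 gained it and 0 changed direction. The 85 include the DESeq2 value of LOC116604390 in F1 MO against F1 GSK, which had no adjusted p. Windows placed at gene starts and sense-strand CAGE were not run. At 20.8 counts per CPM in the shallowest library, members under 1 CPM rest on few counts.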
